A study of Homo sapiens with 12 samples.

Results

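The core autophagy machinery was read here as 39 genes, chosen by symbol from the complexes that build, load and fill the autophagosome. All 39 were found by their Ensembl identifiers among the 20263 genes of the expression table, and 38 of them passed the filter on low values that left 11731 genes for testing. The study compared U87 (U-87 MG) cells, an established human glioblastoma line, after knockout of the hypoxia-inducible factors HIF1α and HIF2α, alone and together. RNA-seq was carried out on 12 libraries, 3 each of cells with an empty vector (vector), HIF1α knockout (HIF1α-ko), HIF2α knockout (HIF2α-ko) and dual knockout (HIF1α/2α-ko). All 4 groups were kept under hypoxia at 1% O2, for 72 h by the series' design text and 12 h by the methods for mRNA detection, so no group shows the genes at normal oxygen. How the knockouts were made, and whether a group is 1 clone or a pool, is not given in the sources used here.

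Autophagy delivers parts of the cytoplasm to the lysosome inside a double membrane. The ULK1 kinase complex starts the process, a class III phosphatidylinositol 3-kinase (PI3K) complex marks the growing membrane (the phagophore) with the lipid PI3P, and WIPI, ATG2, ATG9A and VMP1 proteins help it grow. A pair of ubiquitin-like conjugation systems then attaches ATG8 proteins (the LC3 and GABARAP families) to the membrane, where cargo receptors such as SQSTM1 (p62) bind them, while the transcription factors TFEB and TFE3 switch on autophagy and lysosome genes when nutrients fall. Hypoxia is a well-known inducer of autophagy, partly through the HIF1α target BNIP3, and the transcript level of these genes is not a measure of autophagic flux.

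The targeted genes were checked first. HIF1A was at 112, 110 and 151 TPM (a level per transcript length, scaled to the same total in every library) in the vector libraries, 57.3, 49.5 and 38.6 in HIF1α-ko libraries, 108, 76.1 and 76.6 in HIF2α-ko libraries and 89.2, 67.8 and 69.4 in the dual knockout. EPAS1, which encodes HIF2α, was at 286, 333 and 346 TPM in vector, 251, 288 and 255 in HIF1α-ko libraries, 87.6, 118 and 116 in HIF2α-ko libraries and 101, 120 and 130 in the dual knockout. Both transcripts were thus lower where the label names their knockout, but HIF1A in the dual knockout overlapped HIF2α-ko (log2 difference -0.19 ± 0.20 (SE), adjusted p = 0.453) and was above HIF1α-ko by 0.64 ± 0.20 (adjusted p = 0.0287). Of the markers of U87 cells, VIM, CD44, TNC, SPARC and S100A6 lay between 312 and 14690 TPM and NES between 2.64 and 6.17. Of the glial markers GFAP, S100B, SOX2 and AQP4 were under 0.84 TPM in every library and OLIG2 lay between 0.884 and 19.2, while the 3 epithelial markers stayed under 0.58. Of the 3 immune markers PTPRC and CD3E were under 0.12 TPM and CD68, a lysosomal protein of macrophages, lay between 587 and 1633 in every library. The fibroblast markers COL1A1, COL1A2 and PDGFRB lay between 5.53 and 275 TPM, the endothelial ones under 3.63 and the neuronal ones under 4.28. The part of such cells in the results was not tested. In bulk RNA a lower share of cells that express a gene and less RNA in each cell cannot be told apart. Replicate 1 stood somewhat apart in every group. Its correlations over genes with the others of its group were 0.968 and 0.966 in vector (0.989 between those), 0.975 and 0.977 in the dual knockout (0.992), 0.982 and 0.983 in HIF1α-ko (0.991) and 0.985 and 0.985 in HIF2α-ko (0.992). Without the first replicates HIF1α-ko had 20 members higher and 2 lower than vector, and HIF2α-ko 9 and 7, beside the counts of all libraries given below. Of all 11731 tested genes, 4601 were then higher and 1860 lower in HIF1α-ko, and 2403 and 1880 in HIF2α-ko, also more than with all libraries. The table holds no counts, so the depth behind each value is unknown, and the labels do not say whether replicates were separate cultures, so p-values measure only the spread between these libraries.

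Differences below are on the log2(TPM + 1) scale, which understates changes of low genes, and were tested with limma across all 11731 genes, two-sided, with Benjamini-Hochberg adjustment and a threshold of 0.05. A called gene is one that passed it, and levels are in TPM throughout. The median difference of all tested genes from vector was not 0. It was 0.18 in HIF1α-ko libraries, -0.04 in HIF2α-ko libraries and 0.21 in the dual knockout, and a value "relative to all genes" has it subtracted.

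The upstream sequence of 4 genes is shown because their transcripts carry the results below: ATG101, WIPI2 and WIPI1 had the smallest p-values in the dual knockout, and ATG3 held the most motif matches of all members. Each run is the 250 bases before the RefSeq start on GRCh38.p14, 5′ to 3′ on the strand of the gene. Capitals mark ACGTG or GCGTG, cores of the hypoxia response element that HIF proteins bind, or CACGTG, the E-box that TFEB and TFE3 bind, on either strand. CACGTG contains ACGTG on both strands.
ATG101 (chr12:52069728-52069977, plus strand): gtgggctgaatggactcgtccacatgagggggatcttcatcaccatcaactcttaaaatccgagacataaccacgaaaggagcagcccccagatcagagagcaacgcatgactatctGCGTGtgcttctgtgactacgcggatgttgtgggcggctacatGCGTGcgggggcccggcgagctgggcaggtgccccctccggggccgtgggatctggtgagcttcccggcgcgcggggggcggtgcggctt
WIPI2 (chr7:5189983-5190232, plus strand, the first of 2 listed starts): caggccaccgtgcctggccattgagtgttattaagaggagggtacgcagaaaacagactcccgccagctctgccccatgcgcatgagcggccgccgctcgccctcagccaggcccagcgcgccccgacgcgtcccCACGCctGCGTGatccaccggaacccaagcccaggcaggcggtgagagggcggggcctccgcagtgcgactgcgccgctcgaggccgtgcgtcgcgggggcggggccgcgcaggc
WIPI1 (chr17:68457497-68457746, minus strand): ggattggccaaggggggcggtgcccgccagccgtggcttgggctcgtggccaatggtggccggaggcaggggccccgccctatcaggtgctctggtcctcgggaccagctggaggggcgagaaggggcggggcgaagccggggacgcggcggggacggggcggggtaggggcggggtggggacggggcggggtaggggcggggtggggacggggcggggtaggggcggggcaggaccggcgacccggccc
ATG3 (chr3:112561963-112562212, minus strand): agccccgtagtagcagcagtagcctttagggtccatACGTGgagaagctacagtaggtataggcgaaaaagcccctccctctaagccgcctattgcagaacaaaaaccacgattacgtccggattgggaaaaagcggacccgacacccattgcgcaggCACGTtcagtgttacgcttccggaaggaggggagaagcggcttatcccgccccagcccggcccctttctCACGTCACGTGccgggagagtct

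ATG101 held GCGTG at 133 and 90 bases before its RefSeq start, WIPI2 at 115 and 108 before its first listed start, and WIPI1 none of the 3 motifs. The window of the second WIPI2 start, which is not printed, held 1 ACGTG and 0 GCGTG. Through it WIPI2 counts among the members with ACGTG below. ATG3 held ACGTG at 214, 92, 23, 18 and 17 bases before its RefSeq start, the last 2 of them inside a CACGTG at 18. Across the 35 members with a RefSeq entry, 12 (34.3%) held ACGTG, 18 (51.4%) GCGTG and 2 (5.71%) CACGTG, against 21.7%, 36.2% and 7.73% of 27305 genes. Those are all genes with such an entry, whether tested here or not. They were not matched to the members in expression, gene type or base content, so the shares are not like for like. Among the 19 of them that were higher in the dual knockout, 8 held ACGTG, 7 GCGTG and 1 CACGTG. RB1CC1, UVRAG, ATG4D and MAP1LC3A were not matched. A match is only a run of letters, and binding was not measured.

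The dual knockout was the group in which autophagy genes differed most often from vector. In the dual knockout 22 of the 38 tested members were higher, while 31.8% of all tested genes were, and 2 were lower (GABARAP and CALCOCO2), while 14.8% of all genes were. As shares, 57.9% of members were called higher and 5.26% lower. Their median difference was 0.67, or 0.47 relative to all genes. Scaling the libraries by median ratios left 18 members higher and 4 lower, and quantile normalization 17 and 4. Of all 11731 tested genes, the first called 2745 higher and 2711 lower and the second 2829 and 2848. Without rescaling these were 3732 and 1741. The rise of 16 members and the fall of GABARAP passed under every alternative that tested them. The lower count of members was 1 without vector replicates 2 or 3 or HIF1α/2α-ko replicates 1 or 2.

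The single knockouts gave fewer calls. In HIF1α-ko 11 members were higher (17.3% of all genes were) and 0 lower (8.77% of all genes), with a median difference of 0.28, or 0.10 relative to all genes. In this limma fit 1 member was lower at an unadjusted p under 0.05, ATG14 at -0.76 ± 0.26 (adjusted p = 0.0519). Both rescalings called it lower (adjusted p = 0.0174 and 0.0189), giving 8 members higher and 1 lower. Of all 11731 genes median-ratio scaling called 1299 higher and 1541 lower, and quantile normalization 1581 and 1507. In HIF2α-ko 3 members were higher (5.07% of all genes) and 2 lower (5.89% of all genes), with a median difference of 0.00. Median-ratio scaling gave 4 and 1 there, beside 763 and 589 of all 11731 genes. The HIF2α-ko shares, 7.89% of members higher and 5.26% lower, are near the background, while in HIF1α-ko 28.9% of members were higher. Both sets of counts turned on single libraries. In HIF1α-ko 6 members were higher without vector replicate 2 or HIF1α-ko replicate 2, and 5 without replicate 3 of either, while 2 were lower without vector replicate 1. Of all 11731 genes, 1136, 1035, 1069 and 1010 were then higher, beside 2031 with all libraries. Without vector replicate 1, 1366 of all genes were lower, beside 1029. In HIF2α-ko leaving out vector replicate 1 gave 7 higher and 5 lower, and leaving out vector replicate 3 or HIF2α-ko replicate 2 gave 0 and 0. Of all 11731 genes these settings called 1304 and 1193, 252 and 219, and 250 and 298. Without HIF2α-ko replicate 3 there were 1 and 1, without vector replicate 2 there were 0 lower, and without HIF2α-ko replicate 1, or replicates 2 or 3 of the other knockouts, 1 lower. All 3 comparisons use the same vector libraries, so their calls are not independent of each other.

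**Figure D1:**
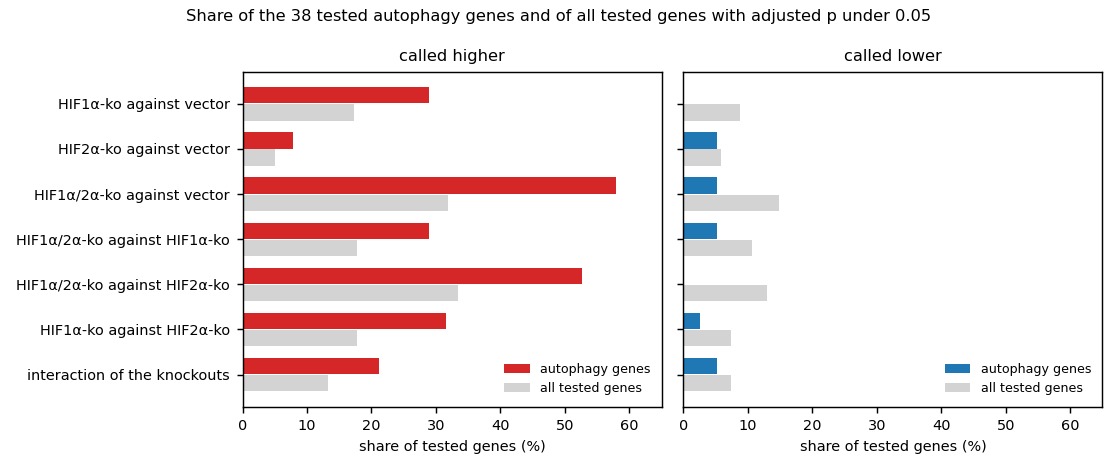
Share of the 38 tested autophagy genes (coloured) and of all 11731 tested genes (grey) called higher (left) or lower (right) in each comparison, in percent. In the dual knockout 57.9% of members were called higher than vector beside 31.8% of all genes, and in HIF2α-ko 7.89% beside 5.07%.

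**Figure D2:**
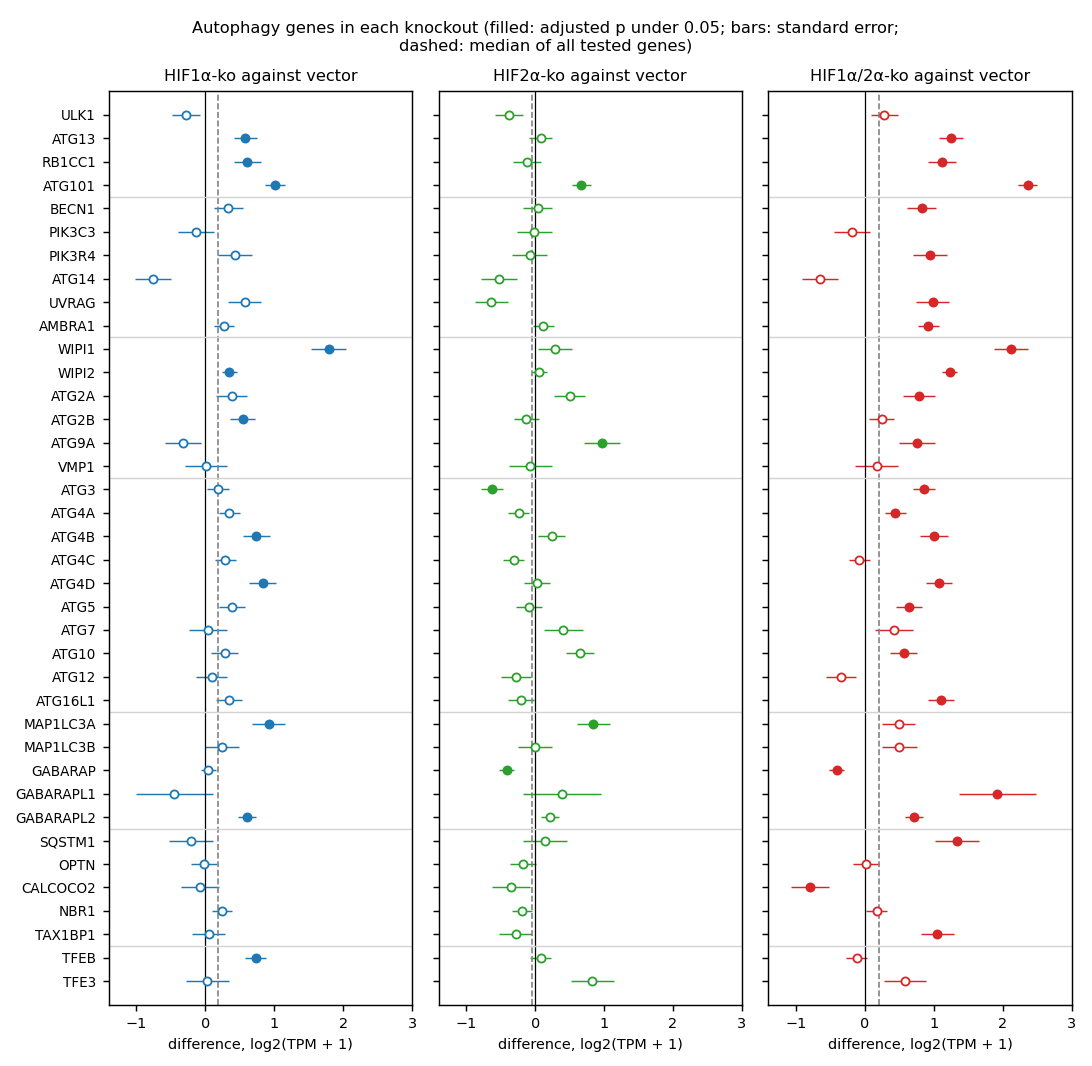
Difference of each tested member from vector on the log2(TPM + 1) scale in the 3 knockouts, grouped by role. Points are estimates, bars 1 standard error, filled points passed the test and the dashed line is the median of all tested genes. ATG101 and WIPI1 lie farthest right in the dual knockout, at 2.36 and 2.12, and CALCOCO2 farthest left, at -0.80.

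Of the ULK1 complex, ATG13, RB1CC1 and ATG101 were higher in both HIF1α-ko and the dual knockout, while the kinase ULK1 passed in no comparison with vector. ATG101 (chr12:52069246-52077494), which binds and stabilizes ATG13, was at 25.7, 27.4 and 25 TPM in vector, 46.9, 52.9 and 62 in HIF1α-ko libraries, 37.2, 50.2 and 39.8 in HIF2α-ko libraries and 128, 147 and 140 in the dual knockout. Every knockout library was above every vector library, and the dual knockout stood well above both single ones. The difference from vector was 1.01 ± 0.14 for HIF1α-ko (adjusted p = 0.000768), 0.67 ± 0.14 for HIF2α-ko (adjusted p = 0.0132) and 2.36 ± 0.14 in the dual knockout (a 5.15-fold change, adjusted p = 6.94e-07). It was the only member called higher in all 3 knockouts. Its HIF2α-ko call was lost without vector replicate 3 (adjusted p = 0.0559) or without HIF2α-ko replicate 2 (adjusted p = 0.0647).

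ATG13 (chr11:46617527-46674818), the adaptor that links ULK1 to its partners, was at 28.3, 21.5 and 19.6 TPM in vector, 34, 33.1 and 37.3 in HIF1α-ko libraries, 23, 23.6 and 25.9 in HIF2α-ko libraries and 51.3, 48.1 and 70.2 in the dual knockout. The dual knockout lay above all other libraries, and HIF2α-ko overlapped vector. It rose by 1.25 ± 0.17 in the dual knockout (adjusted p = 0.000104) and by 0.58 ± 0.17 in the HIF1α-ko group (adjusted p = 0.0259). RB1CC1 (FIP200), the scaffold of the complex, was at 1.05, 0.343 and 0.67 TPM in vector, 1.42, 1.69 and 1.5 in HIF1α-ko libraries, 0.371, 0.504 and 0.728 in HIF2α-ko libraries and 1.78, 2.95 and 3.26 in the dual knockout. At these low levels the HIF1α-ko and dual libraries were still all above vector, by 0.61 ± 0.20 (adjusted p = 0.0401) and 1.12 ± 0.20 (adjusted p = 0.000662). The HIF1α-ko calls of ATG13 and RB1CC1 were lost without vector replicates 2 or 3 or HIF1α-ko replicates 2 or 3 (adjusted p = 0.0585 to 0.153), and that of RB1CC1 also without HIF1α-ko replicate 1 or HIF2α-ko replicates 2 or 3 (adjusted p = 0.0502 to 0.0594). ULK1 was at 58.1 ± 17.6 TPM (SD, n = 3) in vector, 45.9 ± 2.28 in HIF1α-ko libraries, 43 ± 4.29 in HIF2α-ko libraries and 68.8 ± 7.32 in the dual knockout. ULK2, the second kinase of this kind, was listed at 0 in 11 libraries and at 0.0221 TPM in HIF2α-ko replicate 1, and was not tested.

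Of the class III PI3K complexes, 4 of 6 members were higher in the dual knockout (BECN1, PIK3R4, UVRAG and AMBRA1), and none passed in either single knockout. Among all genes 31.8% were higher in the dual knockout, 17.3% in HIF1α-ko and 5.07% in HIF2α-ko. UVRAG (chr11:75815167-76143195), a Beclin 1 partner with roles in endosomes and autophagosome maturation, was at 2.35, 4.25 and 4.93 TPM in vector, 4.05, 6.95 and 7.47 in HIF1α-ko libraries, 1.82, 2.16 and 2.06 in HIF2α-ko libraries and 7.37, 9.78 and 7.82 in the dual knockout. HIF2α-ko lay below all vector libraries and the dual knockout above them. The differences were 0.98 ± 0.24 in the dual knockout (adjusted p = 0.00577), 0.57 ± 0.24 for HIF1α-ko (adjusted p = 0.101) and -0.64 ± 0.24 for HIF2α-ko (adjusted p = 0.111). AMBRA1 (chr11:46396414-46594125), a regulator of Beclin 1, was at 8.04, 8.86 and 8.56 TPM in vector, 9.91, 9.66 and 11.9 in HIF1α-ko libraries, 9.66, 9.41 and 8.94 in HIF2α-ko libraries and 19.9, 15.3 and 15.8 in the dual knockout. The dual libraries stood clear of all others, at 0.92 ± 0.15 above vector (adjusted p = 0.000339).

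BECN1 (Beclin 1), the regulatory core, rose from 32.5 ± 9.06 TPM (SD, n = 3) in vector to 57.7 ± 11.1 in the dual knockout, by 0.82 ± 0.21 (SE, adjusted p = 0.00721). PIK3R4 (VPS15), the pseudokinase that anchors the lipid kinase, rose from 1.4 ± 0.188 to 3.76 ± 1.33 TPM, by 0.94 ± 0.25 (adjusted p = 0.00854). The catalytic subunit did not follow these partners past the threshold: PIK3C3 (VPS34) was at 3.69 ± 0.621 TPM in vector and 3.16 ± 0.986 in the dual knockout (-0.19 ± 0.26, adjusted p = 0.571). ATG14, which directs the complex to autophagosomes, was at 28.7 ± 11.2 TPM in vector and 15.8 ± 2.78, 18.7 ± 3.41 and 17 ± 2.21 in the HIF1α, HIF2α and dual knockouts. Its groups overlapped through vector replicate 1 at 16.6 TPM, beside 30.6 and 38.9 in the other vector libraries. In the dual knockout the difference was -0.65 ± 0.26 (adjusted p = 0.0588), and both rescalings called it lower (adjusted p = 0.0106 and 0.00741).

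Of the genes of phagophore growth, WIPI1 and WIPI2, which read PI3P on the membrane, were higher in HIF1α-ko and the dual knockout. WIPI1 (chr17:68420948-68457513) was at 125, 57.1 and 54.8 TPM in vector, 220, 280 and 271 in HIF1α-ko libraries, 80.9, 92 and 97 in HIF2α-ko libraries and 310, 319 and 337 in the dual knockout. Vector replicate 1 lay above the HIF2α-ko libraries, and the libraries of HIF1α-ko and the dual knockout lay above every library of the others. The differences were 1.79 ± 0.25 for HIF1α-ko (3.46-fold, adjusted p = 0.000633), 0.29 ± 0.25 for HIF2α-ko (adjusted p = 0.489) and 2.12 ± 0.25 in the dual knockout (4.35-fold, adjusted p = 3.63e-05). The dual knockout exceeded HIF1α-ko by 0.33 ± 0.25 (adjusted p = 0.346), and with the replicate block over the knockout groups this difference passed (adjusted p = 0.00803).

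WIPI2 (chr7:5190188-5233826), which recruits ATG16L1 to the membrane, was at 51.4, 42.9 and 45.1 TPM in vector, 58.7, 59.6 and 60.3 in HIF1α-ko libraries, 51.5, 47.3 and 46.2 in HIF2α-ko libraries and 111, 108 and 110 in the dual knockout. The dual libraries stood far above the rest and close together, and HIF2α-ko overlapped vector. The differences were 1.23 ± 0.11 in the dual knockout (2.34-fold, adjusted p = 7.05e-06) and 0.35 ± 0.11 for HIF1α-ko (adjusted p = 0.0331). The HIF1α-ko call was lost under both rescalings (adjusted p = 0.385 and 0.0968) and without vector replicates 2 or 3, any HIF1α-ko library, HIF2α-ko replicate 2 or HIF1α/2α-ko replicate 3 (adjusted p = 0.0508 to 0.111).

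ATG9A (chr2:219219380-219229717), the scramblase whose vesicles seed the phagophore, had an order of its own: 24.7, 16.9 and 15.6 TPM in vector, 19.2, 11.8 and 13.9 in HIF1α-ko libraries, 46.3, 32.1 and 35.5 in HIF2α-ko libraries and 40.4, 22.3 and 37.3 in the dual knockout. It was high in HIF2α-ko and the dual knockout, though the dual knockout overlapped vector. It differed from vector by 0.97 ± 0.26 for HIF2α-ko (adjusted p = 0.0307) and 0.76 ± 0.26 in the dual knockout (adjusted p = 0.0273), and in HIF1α-ko set against HIF2α-ko it was lower, at -1.30 ± 0.26 (adjusted p = 0.00389). The first call was lost without vector replicates 2 or 3 or any HIF2α-ko library (adjusted p = 0.0595 to 0.126), the second without vector replicates 2 or 3 or HIF1α/2α-ko replicates 1 or 3 (adjusted p = 0.0827 to 0.0968) and under both rescalings (adjusted p = 0.165 and 0.203). The lipid transfer gene ATG2A rose from 5.55 ± 2.62 to 9.72 ± 0.912 TPM in the dual knockout (0.78 ± 0.23, adjusted p = 0.0161), a call lost without vector replicates 2 or 3 or HIF1α/2α-ko replicates 2 or 3 (adjusted p = 0.0504 to 0.0715) and under both rescalings (adjusted p = 0.062 and 0.118). Its paralog ATG2B was higher only in HIF1α-ko among the comparisons with vector, at 1.87 ± 0.485 beside 0.968 ± 0.252 TPM (0.54 ± 0.18, adjusted p = 0.0436), and 12 of 20 alternatives lost this call, 8 of them by leaving out 1 library (vector or HIF1α-ko replicates 2 or 3, or the same numbers of the other knockouts, adjusted p = 0.0526 to 0.16). VMP1, a scramblase of the endoplasmic reticulum, lay between 18.2 and 46.8 TPM and passed in no comparison.

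Of the 10 conjugation genes and ATG4 proteases, 7 were higher in the dual knockout, 2 in HIF1α-ko (ATG4B and ATG4D) and 0 in HIF2α-ko, where ATG3 was lower. The shares of all genes called higher were 31.8%, 17.3% and 5.07%. Under median-ratio scaling 5 of the 10 were higher and 1 lower in the dual knockout, and 1 was higher in HIF2α-ko. ATG3 (chr3:112532509-112562046), the E2-like enzyme that hands ATG8 proteins to the membrane lipid, was at 31.6, 32.7 and 37.5 TPM in vector, 30.4, 44.8 and 42.2 in HIF1α-ko libraries, 19, 21.6 and 24.8 in HIF2α-ko libraries and 57.6, 67.5 and 60.6 in the dual knockout. HIF2α-ko lay below and the dual knockout above every vector library, while HIF1α-ko overlapped vector. The differences were -0.62 ± 0.16 for HIF2α-ko (adjusted p = 0.0312) and 0.85 ± 0.16 in the dual knockout (adjusted p = 0.00114). It was the only member called in opposite directions. The HIF2α-ko call was lost without vector replicates 2 or 3 or HIF2α-ko replicates 1 or 2 (adjusted p = 0.0683 to 0.125).

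ATG16L1 (chr2:233210051-233295674), which places the ATG12–ATG5 conjugate on the membrane, was at 7.47, 10.1 and 8.82 TPM in vector, 8.63, 13.5 and 12.4 in HIF1α-ko libraries, 6.44, 7.99 and 7.99 in HIF2α-ko libraries and 16.3, 21.1 and 22.6 in the dual knockout. Only the dual knockout stood clear of vector, by 1.10 ± 0.19 (adjusted p = 0.000654). ATG4B and ATG4D encode proteases that trim ATG8 proteins. ATG4B (chr2:241637213-241673857) was at 11.9, 12.2 and 9.97 TPM in vector, 16.5, 20.3 and 22.2 in HIF1α-ko libraries, 11.6, 13.2 and 15.9 in HIF2α-ko libraries and 17.1, 27.3 and 27.9 in the dual knockout. ATG4D (chr19:10543895-10553418) was at 5.89, 9.96 and 9.18 TPM in vector, 13.8, 15.4 and 16.6 in HIF1α-ko libraries, 8.31, 7.49 and 9.4 in HIF2α-ko libraries and 16.6, 17.7 and 20.7 in the dual knockout. For both, the libraries of HIF1α-ko and of the dual knockout lay above all vector and HIF2α-ko libraries. In HIF1α-ko they rose by 0.74 ± 0.20 (ATG4B, adjusted p = 0.0191) and 0.83 ± 0.19 (ATG4D, adjusted p = 0.00807), and in the dual knockout by 1.00 ± 0.20 (adjusted p = 0.00158) and 1.07 ± 0.19 (adjusted p = 0.000581). The HIF1α-ko call of ATG4B was lost without vector replicate 3 or HIF1α-ko replicates 2 or 3 (adjusted p = 0.0645 to 0.0823).

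ATG5, ATG10 and ATG4A were higher in the dual knockout by 0.64 ± 0.19, 0.56 ± 0.20 and 0.44 ± 0.15 (adjusted p = 0.0159, 0.038 and 0.0319), at group means of 12.4, 4.51 and 2.41 TPM beside 7.58, 2.7 and 1.54 in vector. ATG5 is the partner of ATG12 and ATG10 the E2-like enzyme that joins them. Each of these calls was lost without vector replicate 2 or HIF1α/2α-ko replicates 2 or 3 (adjusted p = 0.0615 to 0.137), that of ATG10 also without vector replicate 3 or HIF2α-ko replicate 3 (adjusted p = 0.0724 and 0.052), and all under quantile normalization (adjusted p = 0.0573, 0.124 and 0.155). The group mean of ATG10 was highest in HIF2α-ko, at 4.88 TPM, with libraries at 3.62, 6.09 and 4.94. These lay above all vector libraries, at 2.44 to 2.89 TPM, though ATG10 was not called in HIF2α-ko. The E1-like enzyme ATG7, the modifier ATG12 and the protease ATG4C passed in no knockout against vector, at differences in the dual knockout of 0.42 ± 0.28, -0.35 ± 0.22 and -0.08 ± 0.15. For ATG7, vector replicate 1 was at 27.7 TPM beside 13.6 and 9.54 in the other vector libraries.

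The 5 ATG8 genes did not move together. GABARAPL2 was higher in HIF1α-ko and the dual knockout, MAP1LC3A in both single knockouts, GABARAPL1 only in the dual one, GABARAP was lower in HIF2α-ko and the dual knockout, and MAP1LC3B did not pass. GABARAPL2 (chr16:75566351-75577881) was at 193, 138 and 156 TPM in vector, 223, 258 and 255 in HIF1α-ko libraries, 168, 198 and 196 in HIF2α-ko libraries and 266, 266 and 259 in the dual knockout. HIF1α-ko and the dual knockout lay above all other libraries, by 0.60 ± 0.13 (adjusted p = 0.00689) and 0.71 ± 0.13 (adjusted p = 0.000916) over vector. GABARAP (chr17:7240014-7242770), the most abundant of the family in vector, was at 339, 342 and 395 TPM in vector, 388, 346 and 372 in HIF1α-ko libraries, 296, 249 and 266 in HIF2α-ko libraries and 295, 259 and 256 in the dual knockout. HIF2α-ko and the dual knockout lay below all other libraries, at -0.41 ± 0.11 each (adjusted p = 0.0382 in HIF2α-ko libraries and 0.0107 in the dual knockout). In HIF2α-ko this call was lost under median-ratio scaling (adjusted p = 0.18) and without any of 8 libraries (replicates 2 and 3 of each group, adjusted p = 0.0533 to 0.155).

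GABARAPL1 (chr12:10212458-10223130) was at 60.8, 29.2 and 22 TPM in vector, 24.3, 24.1 and 25.6 in HIF1α-ko libraries, 17.1, 82.8 and 62.4 in HIF2α-ko libraries and 195, 188 and 61.3 in the dual knockout. HIF1α/2α-ko replicate 3 was far below its group and only just above vector replicate 1, and HIF2α-ko was as uneven. The difference in the dual knockout was 1.92 ± 0.56 (3.77-fold, adjusted p = 0.0138), and it was lost without vector replicate 3 (adjusted p = 0.057) or HIF1α/2α-ko replicate 2 (adjusted p = 0.0562). MAP1LC3A (chr20:34546854-34560345) was at 35, 17.8 and 18.1 TPM in vector, 41.4, 37.2 and 52.8 in HIF1α-ko libraries, 42.3, 45.5 and 35.7 in HIF2α-ko libraries and 29.2, 36.9 and 30.2 in the dual knockout. Each single knockout lay above vector and the dual knockout overlapped it. The differences were 0.92 ± 0.24 for HIF1α-ko (adjusted p = 0.0147), 0.84 ± 0.24 for HIF2α-ko (adjusted p = 0.0399) and 0.49 ± 0.24 in the dual knockout (adjusted p = 0.107). The first was lost without vector replicates 2 or 3 or HIF1α-ko replicate 3 (adjusted p = 0.0652 to 0.0693), and the second without those vector libraries, HIF1α-ko replicates 1 or 2, any HIF2α-ko library or HIF1α/2α-ko replicate 3 (adjusted p = 0.0504 to 0.164).

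MAP1LC3B, the usual autophagosome marker at the protein level, was at 62.8 ± 19.3 TPM (SD, n = 3) in vector, 73.1 ± 16.8 in HIF1α-ko libraries, 60.8 ± 2.62 in HIF2α-ko libraries and 88.5 ± 23.3 in the dual knockout. MAP1LC3B has the near-identical copy MAP1LC3B2, and GABARAPL1 close copies in the genome, so their values are uncertain where reads could be split. The summed TPM of the 5 genes was 645 ± 44.2 in vector, 755 ± 17 in HIF1α-ko libraries, 613 ± 24.5 in HIF2α-ko libraries and 803 ± 80.9 in the dual knockout. GABARAP made up 55.8% ± 6.7 of the sum in vector and 33.8% ± 3 in the dual knockout, where GABARAPL1 made up 17.9% ± 8 beside 5.68% ± 2.8. The GABARAP shares of the 2 groups did not overlap, at 48.9% to 62.4% against 30.4% to 36.1%, but GABARAPL1 at 8.63% in HIF1α/2α-ko replicate 3 lay under the 8.77% of vector replicate 1. These shares were not tested.

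**Figure D3:**
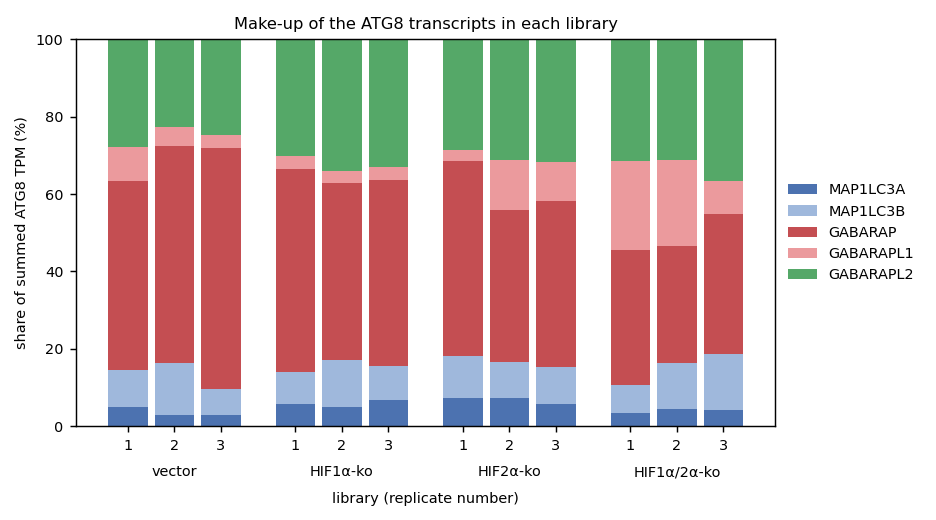
Share of each ATG8 gene in the summed TPM of the 5 ATG8 genes, in percent, for each of the 12 libraries. The GABARAP band narrows from 55.8% on average in vector to 33.8% in the dual knockout, and the GABARAPL1 band is widest in dual replicates 1 and 2, at 23% and 22%.

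Of the cargo receptors, SQSTM1 and TAX1BP1 were higher and CALCOCO2 lower in the dual knockout, and none passed in a single knockout. Among all genes 31.8% were higher and 14.8% lower in the dual knockout. SQSTM1 (chr5:179806398-179838078) was the most abundant of all members, at 887, 1238 and 1162 TPM in vector, 923, 928 and 956 in HIF1α-ko libraries, 1585, 1495 and 727 in HIF2α-ko libraries and 1632, 3551 and 3570 in the dual knockout. Dual replicate 1 lay just above the highest HIF2α-ko library, and the other two far above it. The difference was 1.34 ± 0.32 in the dual knockout (2.53-fold, adjusted p = 0.00435), -0.21 ± 0.32 for HIF1α-ko (adjusted p = 0.646) and 0.14 ± 0.32 for HIF2α-ko (adjusted p = 0.821). The p62 protein is itself degraded by autophagy, which its transcript does not show.

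TAX1BP1 (chr7:27739331-27844564), a receptor for ubiquitinated aggregates and bacteria, was at 4.42, 7 and 8.79 TPM in vector, 5.84, 8.21 and 6.42 in HIF1α-ko libraries, 4.25, 5.83 and 5.61 in HIF2α-ko libraries and 11, 16.3 and 17.2 in the dual knockout. The dual libraries were above all others, by 1.05 ± 0.24 over vector (adjusted p = 0.00328). CALCOCO2 (NDP52, chr17:48830988-48866522), a receptor for bacteria and damaged mitochondria, went the other way, at 53.2, 65 and 105 TPM in vector, 66.7, 92.4 and 49.4 in HIF1α-ko libraries, 41.6, 63.6 and 66 in HIF2α-ko libraries and 33.4, 43.8 and 45.3 in the dual knockout. The dual libraries lay below vector but overlapped HIF2α-ko. The difference was -0.80 ± 0.28 (adjusted p = 0.0311), lost without vector replicates 2 or 3 or HIF1α/2α-ko replicates 1 or 2 (adjusted p = 0.0504 to 0.137). OPTN, at 160 ± 43.1 TPM in vector and 158 ± 2.83 in the dual knockout, and NBR1, at 28.4 ± 2.47 and 32.1 ± 2.55, passed in no knockout against vector. SQSTM1 alone made up 80.4% ± 2.4 of the summed TPM of the 5 receptors in vector and 91.5% ± 3.3 in the dual knockout.

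Of the transcription factors, TFEB was higher in HIF1α-ko and TFE3 passed in no comparison with vector. TFEB (chr6:41683978-41736259) was at 2.85, 4.07 and 3.77 TPM in vector, 6.56, 6.43 and 6.55 in HIF1α-ko libraries, 3.34, 4.36 and 3.68 in HIF2α-ko libraries and 3.4, 3.01 and 3.14 in the dual knockout. HIF1α-ko stood clear of all other libraries, and the dual knockout lay in the range of vector. The difference was 0.73 ± 0.15 for HIF1α-ko (adjusted p = 0.0058) and -0.12 ± 0.15 in the dual knockout (adjusted p = 0.563). TFE3 (chrX:49028726-49043486) was at 144, 324 and 140 TPM in vector, 121, 246 and 230 in HIF1α-ko libraries, 360, 322 and 314 in HIF2α-ko libraries and 327, 255 and 262 in the dual knockout. One library of vector lay apart at 324 TPM, within the range of HIF2α-ko, and the differences of 0.03 ± 0.31, 0.83 ± 0.31 and 0.58 ± 0.31 did not pass (adjusted p = 0.955, 0.111 and 0.146). Both proteins are controlled mainly by their place in the cell, which RNA does not show.

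**Figure D4:**
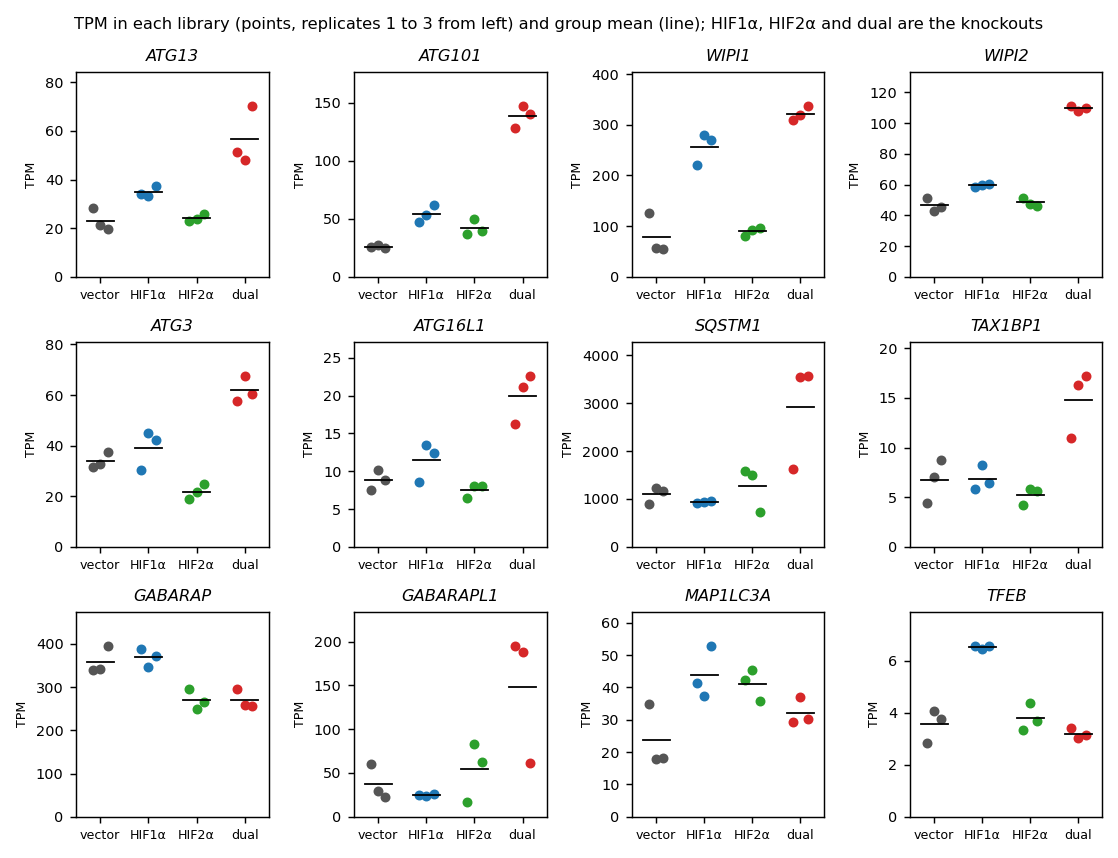
TPM of 12 members in every library, as points for replicates 1 to 3 from left in each group, with the group mean as a line and each axis from 0. WIPI2 in the dual knockout lies between 108 and 111 TPM and in vector between 42.9 and 51.4, and TFEB is highest in HIF1α-ko, at 6.43 to 6.56 TPM.

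The knockouts were then compared with each other, to see what loss of the second factor adds. Against HIF1α-ko, 11 members were higher in the dual knockout (17.7% of all genes were) and 2 lower, GABARAP and TFEB (10.6% of all genes). Against HIF2α-ko, 20 were higher (33.5% of all genes) and 0 lower (12.9% of all genes, and by limma also 0 at an unadjusted p under 0.05). HIF1α-ko exceeded HIF2α-ko for 12 members (17.8% of all genes) and was lower for 1, ATG9A (7.37% of all genes). In the knockout groups the first replicates deviated together, while replicates 2 and 3 were not set apart by number. HIF1α-ko replicate 3 correlated at 0.196 with dual replicate 3 and at 0.302 with dual replicate 2. A replicate block treats same-numbered libraries as sets, which the labels do not give. With it the 3 comparisons gave 15 members higher and 4 lower, 23 and 0, and 19 and 3. Of all 11731 genes it called 3398 higher and 2286 lower, 5114 and 2225, and 4438 and 1489, more than without it. Under this replicate block RB1CC1, BECN1, PIK3R4 and WIPI1 also passed as higher in the dual knockout than in HIF1α-ko (adjusted p = 0.0177, 0.0221, 0.0296 and 0.00803) and ATG12 and CALCOCO2 as lower (adjusted p = 0.0287 and 0.0208). Over HIF2α-ko the blocked fit added ATG2B, MAP1LC3B and NBR1 (adjusted p = 0.0207, 0.0368 and 0.0211). Between the single knockouts it added ATG101, PIK3R4, WIPI2, ATG4B, ATG5, ATG16L1 and NBR1 as higher in HIF1α-ko (adjusted p = 0.0299, 0.0289, 0.0116, 0.00725, 0.0127, 0.00367 and 0.0139) and ATG10 and TFE3 as lower (adjusted p = 0.0358 and 0.0304). Without HIF1α/2α-ko replicate 3 only TFEB was lower than in HIF1α-ko (1 member, GABARAP at adjusted p = 0.0502), and without vector replicate 2 the members lower in HIF1α-ko than in HIF2α-ko were 2. Quantile normalization gave 11 and 4, 16 and 4, and 7 and 2, and median-ratio scaling gave 10 and 3, 17 and 3, and 8 and 3. Of all 11731 genes quantile normalization called 1822 and 1826, 2736 and 2614, and 1345 and 1254. Median-ratio scaling called 1873 and 1522, 2644 and 2565, and 1044 and 1302 of them.

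Exactly 9 members were higher in the dual knockout than in vector and in each single knockout: ATG13, ATG101, AMBRA1, WIPI2, ATG3, ATG16L1, GABARAPL1, SQSTM1 and TAX1BP1. Of all genes, 31.8%, 17.7% and 33.5% were higher in these comparisons taken singly. The share with the joint pattern was not computed, so whether 9 of 38 is unusual cannot be told. Over HIF1α-ko the dual knockout was higher by 1.35 ± 0.14 for ATG101 (adjusted p = 7.58e-05), 0.87 ± 0.11 for WIPI2 (adjusted p = 0.000179), 1.55 ± 0.32 for SQSTM1 (adjusted p = 0.00362) and 2.36 ± 0.56 for GABARAPL1 (adjusted p = 0.00811). Over HIF2α-ko it was higher by 1.69 ± 0.14 for ATG101 (adjusted p = 4.8e-06), 1.47 ± 0.16 for ATG3 (adjusted p = 2.65e-05) and 1.33 ± 0.24 for TAX1BP1 (adjusted p = 0.000714). The GABARAPL1 difference from HIF2α-ko (1.53 ± 0.56, adjusted p = 0.0403) was lost in 13 of 22 alternatives, among them those without HIF2α-ko replicate 1 (adjusted p = 0.178), HIF1α/2α-ko replicate 1 (0.121) or 2 (0.133), vector replicate 2 (0.0508) and each HIF1α-ko library (0.0501 to 0.0519). The calls of ATG13 and ATG16L1 over HIF1α-ko were lost without HIF1α/2α-ko replicate 3 (adjusted p = 0.0586 and 0.0554), and that of ATG16L1 without HIF1α-ko replicate 1 (adjusted p = 0.0519).

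Between the single knockouts the members with the firmest differences were UVRAG, WIPI1, ATG9A, ATG3 and ATG4D, whose calls passed under every alternative. HIF1α-ko exceeded HIF2α-ko by 1.50 ± 0.25 for WIPI1 (adjusted p = 0.00132), 1.21 ± 0.24 for UVRAG (adjusted p = 0.00436), 0.80 ± 0.16 for ATG3 (adjusted p = 0.00466) and 0.79 ± 0.19 for ATG4D (adjusted p = 0.0098). ATG9A was the reverse, as given above. Without HIF1α-ko replicates 2 or 3, or HIF2α-ko replicates 1 or 2, the count of 12 fell to 6, 6, 7 and 6. Over all 11731 genes the count of 2084 fell to 847, 1035, 1075 and 1281.

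Whether the dual knockout differed from the sum of the single knockouts was tested as an interaction, with 8 members above the sum (13.2% of all genes were) and 2 below it (7.35% of all genes). SQSTM1 (1.41 ± 0.45, adjusted p = 0.044), TAX1BP1 (1.29 ± 0.34, adjusted p = 0.0199), ATG3 (1.28 ± 0.23, adjusted p = 0.00347), UVRAG (1.05 ± 0.34, adjusted p = 0.0477), ATG16L1, ULK1, WIPI2 (0.81 ± 0.16, adjusted p = 0.00456) and ATG101 lay above. MAP1LC3A (-1.27 ± 0.33, adjusted p = 0.02) and TFEB (-0.92 ± 0.22, adjusted p = 0.0124) lay below, both called higher in HIF1α-ko and not in the dual knockout. For WIPI1 the dual difference was 2.12 beside a sum of 2.08 (interaction 0.04 ± 0.35, adjusted p = 0.949). Across all 38 members the dual value lay above the sum for 25 and below it for 13. The median interaction of all tested genes was itself 0.12, beside 0.22 for members, and 23 members lay above the all-gene median. The calls of WIPI2, ATG3 and TFEB passed under every alternative. TAX1BP1 lost its call without HIF1α/2α-ko replicate 3 (adjusted p = 0.0524), and MAP1LC3A without vector replicate 3, HIF1α-ko replicate 3 or HIF2α-ko replicate 2 (adjusted p = 0.0508 to 0.0546). ATG16L1, ATG101, ULK1, UVRAG and SQSTM1 each lost it without vector replicates 2 or 3, HIF1α-ko replicate 1, HIF1α/2α-ko replicates 2 or 3 and other libraries (adjusted p = 0.0503 to 0.115). The higher count of 8 was 3 to 5 without vector or HIF1α/2α-ko replicates 2 or 3, any HIF1α-ko library or HIF2α-ko replicates 1 or 3. Over all 11731 genes the higher count was 976 to 1295 in these settings, beside 1552 with all libraries.

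**Figure D5:**
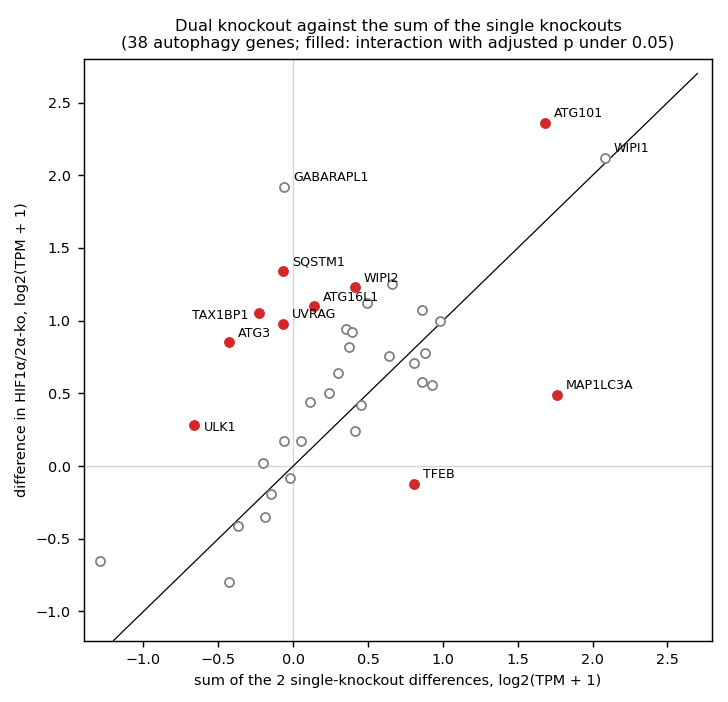
Difference of the dual knockout from vector (vertical) against the sum of the differences of HIF1α-ko and HIF2α-ko (horizontal), both on the log2(TPM + 1) scale, for the 38 tested members. Filled points passed the interaction test and the line marks equality. The axes share the vector libraries. SQSTM1 lies at 1.34 over a sum of -0.07, and MAP1LC3A at 0.49 under a sum of 1.76.

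Over the 3 comparisons with vector, 12 members were called higher in the dual knockout alone, 7 in HIF1α-ko and the dual knockout, and 11 in no knockout (ULK1, PIK3C3, ATG14, VMP1, ATG4C, ATG7, ATG12, MAP1LC3B, OPTN, NBR1 and TFE3). The share of all genes with each of these patterns was not computed. A call in 1 comparison and not in another does not show that they differ. The spread within groups was of the size of these smaller differences. The median SD of log2(TPM + 1) over members was 0.261 in vector, 0.223 in HIF1α-ko libraries, 0.158 in HIF2α-ko libraries and 0.196 in the dual knockout. Several members overlap another gene that is in the table on the opposite strand, among them ATG13 (HARBI1), WIPI1 (ARSG), ATG3 (SLC35A5), ATG4B (THAP4), ATG4D (KRI1), SQSTM1 (MGAT4B and MRNIP), BECN1 (PSME3 and CNTD1) and TAX1BP1 (JAZF1). GABARAP overlaps AC120057.2 on the same strand. Whether reads were counted by strand is not given in the sources used here, so reads from the shared stretches cannot be told apart.

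The neighbouring steps of the pathway were read from 5 further lists. Of all tested genes, 17.3% were higher and 8.77% lower in HIF1α-ko, and 5.07% and 5.89% in HIF2α-ko. Of 17 genes for fusion of autophagosomes with the lysosome, 6 (35.3%) were higher and 3 (17.6%) lower in the dual knockout. This is near the 31.8% and 14.8% of all genes. In HIF1α-ko 5 (29.4%) were higher and 2 (11.8%) lower, and in HIF2α-ko 1 (5.88%) and 3 (17.6%). YKT6, a SNARE of the fusion step, was at 36.4 ± 0.565 TPM (SD, n = 3) in vector and 131 ± 5.87 in the dual knockout (1.81 ± 0.11, adjusted p = 6.94e-07). TECPR1, which tethers autophagosomes to lysosomes, rose by 1.59 ± 0.15 (adjusted p = 1.13e-05), and VPS39, a subunit of the HOPS tether, by 0.70 ± 0.13 (adjusted p = 0.00112). Of 14 tested further initiation and membrane factors (of 15), 7 (50%) were higher and 0 lower in the dual knockout. In HIF1α-ko 1 (7.14%) was higher and 0 lower, and in HIF2α-ko 0 and 0, beside the low shares of all genes there. RUBCN, a brake on the UVRAG complex, rose by 1.03 ± 0.15 (adjusted p = 0.000164), the scramblase gene TMEM41B by 0.87 ± 0.17 (adjusted p = 0.00126) and EI24 by 0.71 ± 0.14 (adjusted p = 0.0014). Of 7 tested paralogs of members (of 9), only the kinase gene ULK3 passed in the dual knockout (1.29 ± 0.21, adjusted p = 0.000354), beside ATG16L2 at -0.40 ± 0.15 and WDR45 at 0.39 ± 0.16 (adjusted p = 0.0517 and 0.0582). The paralogs gave 1 higher and 1 lower in HIF1α-ko and 0 and 0 in HIF2α-ko.

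Of 32 tested genes of nutrient and energy control upstream of ULK1 and TFEB (of 35), 8 (25%) were higher and 7 (21.9%) lower in the dual knockout, beside 31.8% and 14.8% of all genes. In HIF1α-ko 4 (12.5%) were higher and 4 (12.5%) lower, beside 17.3% and 8.77% of all genes. In HIF2α-ko these were 1 (3.12%) and 4 (12.5%), beside 5.07% and 5.89%. The 3 with the smallest p were all higher. SESN2, a leucine sensor that restrains mTORC1, rose from 12.1 ± 1.39 to 91.7 ± 26 TPM in the dual knockout (2.78 ± 0.23, adjusted p = 3.86e-06). STK11 (LKB1), the kinase upstream of AMPK, rose by 1.57 ± 0.12 (adjusted p = 2.08e-06) and MTOR itself by 1.90 ± 0.26 (adjusted p = 9.79e-05). Of 16 tested further selective receptors (of 17), 4 (25%) were higher and 2 (12.5%) lower in the dual knockout, below both shares of all genes. In HIF1α-ko 0 were higher and 3 (18.8%) lower, and in HIF2α-ko 0 and 1 (6.25%), beside the same shares of all genes. BNIP3, the mitophagy receptor and HIF1α target, was at 1019 ± 334 TPM in vector, 71.7 ± 8.46 in HIF1α-ko libraries, 1031 ± 46.2 in HIF2α-ko libraries and 137 ± 2.15 in the dual knockout. It fell in HIF1α-ko and the dual knockout, with differences of -3.76 ± 0.20 (adjusted p = 1.97e-06) and -2.83 ± 0.20 (adjusted p = 1.56e-06), while HIF2α-ko overlapped vector. CCPG1, a receptor for the endoplasmic reticulum, rose by 1.15 ± 0.25 in the dual knockout (adjusted p = 0.00255), and CALCOCO1, a receptor of the same organelle and the Golgi, fell by 0.65 on the log2 scale (SE 0.14, adjusted p = 0.00299).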

How the data were processed

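RNA-seq of 12 libraries of U87 cells was read from 1 table of TPM values that the authors deposited, with 20263 genes and column sums of 999954 to 999982. The submitters' processing notes name FastQC 0.11.2, Trimmomatic 0.36, HISAT2 2.0, bedtools 2.26.0 and the GRCh38 build. The counting tool, the annotation and the strand setting are not given in the sources used here. TPM keeps no depth, so counting error could not be computed and no count model was used. Symbols came from a gene name table for 20148 identifiers and from GENCODE 29 for 76 more, and columns whose names carry no knockout code were taken as vector.

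Genes at 1 TPM or more in at least 3 libraries were kept, which left 11731. Values were tested as log2(TPM + 1) with limma 3.58.1 (R 4.3.3), with a mean-variance trend, all 4 groups in 1 fit, two-sided, and Benjamini-Hochberg adjustment over all genes within each comparison. The 7 comparisons were each knockout against vector, the 3 pairs of knockouts and the interaction. The procedure was tested on simulated data. The fit was repeated with 0.1 as the pseudocount, without filtering, with genes kept from a mean of 5 TPM, with median-ratio scaling, quantile normalization, no trend, a replicate block, only the groups compared, and each library left out in turn. Leaving out the first replicate of every group was added after seeing the data. Deviations from the group means of same-numbered libraries of 2 knockouts correlated at r = 0.196 to 0.508 over genes, against -0.416 to 0.302 for different numbers. Only the first replicates were set apart, at 0.463 to 0.508. Same-numbered replicates 2 or 3 gave 0.196 to 0.25, and a replicate 2 with a replicate 3 gave 0.158 to 0.302. Vector and a knockout gave -0.0265 to 0.163 for the same number, against -0.208 to 0.175. The labels give no pairing, and the values show none for replicates 2 and 3, so the block among the knockouts is given only as an alternative.

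The members and all lists were chosen with earlier results of these data known. Values in every library are given for 16 members: those called in a knockout against vector with a log2 difference of at least 0.8 in size and the one with the smallest p of each role group, and of these the ones with the smallest p. GABARAP, GABARAPL1, TFEB, ATG9A and CALCOCO2 were added after their values were seen, as was ATG3 among the printed sequences. Further lists are described by their counts and the 3 genes with the smallest p in the dual knockout. Promoter sequences came from RefSeq (GRCh38.p14), gene positions from GENCODE 29 (GRCh38). Tables were handled with Python 3.11.15, pandas 2.3.3 and numpy 2.4.6, and figures drawn with matplotlib 3.10.9.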

Additional observations from a re-analysis of the deposited data

Results flagged for a closer look

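In 10 members the dual knockout differed from the sum of the single knockouts by limma's interaction test with Benjamini-Hochberg adjustment over all genes. As shares, 21.1% of members lay above the sum and 5.26% below it, beside 13.2% and 7.35% of all tested genes. The interaction was 0.95 for ULK1 (adjusted p = 0.0327), 0.68 for ATG101 (0.0352), 1.05 for UVRAG (0.0477), 0.81 for WIPI2 (0.00456), 1.28 for ATG3 (0.00347), 0.96 for ATG16L1 (0.0287), 1.41 for SQSTM1 (0.044) and 1.29 for TAX1BP1 (0.0199), all above the sum. It was -1.27 for MAP1LC3A (0.02) and -0.92 for TFEB (0.0124), below the sum. Each value is a difference on the log2(TPM + 1) scale and measures how far the single changes fail to add up on that scale. Only the calls of WIPI2, ATG3 and TFEB passed under every alternative. ULK1 lost its call in 13 of 20 alternatives and SQSTM1 in 12 of 20. HIF1A, the targeted gene, also had an interaction (1.15 ± 0.28, adjusted p = 0.0131), with a higher transcript level in the dual knockout than in HIF1α-ko. Its part in the results of the members was not tested. Groups of 3 libraries were not tested for libraries lying apart.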

How the results depend on the processing

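Counts of members are given as higher and lower. Leaving out 1 library gave 5 to 13 and 0 to 2 in HIF1α-ko, 0 to 7 and 0 to 5 in HIF2α-ko, 17 to 24 and 1 to 3 in HIF1α/2α-ko, 8 to 13 and 1 to 3 for the dual knockout against HIF1α-ko, 18 to 21 and 0 to 0 against HIF2α-ko, 6 to 15 and 1 to 2 for HIF1α-ko against HIF2α-ko, and 3 to 9 and 1 to 2 for the interaction. Over all 11731 genes leaving out 1 library gave 1010 to 2828 and 542 to 1366 in HIF1α-ko, and 250 to 1304 and 219 to 1193 in HIF2α-ko. Without a filter HIF2α-ko had 1 member higher, HIF1α/2α-ko 1 lower and the interaction 5 higher. With a filter at a mean of 5 TPM the lower count was 1 in HIF1α-ko, against HIF1α-ko and in the interaction. Median-ratio scaling gave 1 lower in HIF1α-ko, 1 in HIF2α-ko, 4 in HIF1α/2α-ko, 3 against HIF2α-ko and 3 between the single knockouts, and 5 higher in the interaction. Quantile normalization gave 1 lower in HIF1α-ko, 4 in HIF1α/2α-ko, 4 against HIF1α-ko and 4 against HIF2α-ko, 7 and 2 between the single knockouts, and 5 higher in the interaction. Of all 11731 genes, median-ratio scaling called 2711 and quantile normalization 2848 lower in HIF1α/2α-ko, beside 1741 without rescaling. Without the trend HIF2α-ko had 1 lower. With only the groups compared HIF1α-ko had 7 higher, HIF2α-ko 1 and 0, and the single knockouts 3 lower. Without the first replicates, an alternative chosen after seeing the data, HIF1α-ko had 20 and 2, HIF2α-ko 9 and 7, the dual knockout 17 higher against HIF1α-ko, the single knockouts 2 lower and the interaction 5 lower. Calls over all 11731 genes rose as well, to 4601 and 1860 in HIF1α-ko and 2403 and 1880 in HIF2α-ko. There they were 3384 higher against HIF1α-ko, 1521 lower between the single knockouts and 2147 lower in the interaction. The replicate block over all groups, where vector numbers did not pair, gave 13 and 1, 4 and 3, and 22 and 3 against vector and 8 and 2 in the interaction. The replicate block among the knockouts gave 15 and 4, 23 and 0, and 19 and 3, beside 3398 and 2286, 5114 and 2225, and 4438 and 1489 of all 11731 genes. The cause of these moves was not tested. Of the values of called members, 1777 kept their direction and side of the threshold, 258 no longer passed and none reversed. The medians over members ranged over all alternatives from 0.14 to 0.42 in HIF1α-ko, -0.09 to 0.04 in HIF2α-ko, where the sign was not stable around -0.00, 0.43 to 0.81 in the dual knockout, 0.18 to 0.47 against HIF1α-ko, 0.29 to 0.69 against HIF2α-ko, 0.11 to 0.41 between the single knockouts and 0.11 to 0.32 in the interaction, with the lowest values of the HIF1α-ko and dual comparisons with vector under median-ratio scaling. Depth is unknown, so what it limits cannot be stated.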
